A study of Mus musculus with 31 samples.

Results

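The non-peptidergic nociceptor genes described here are 8 genes of mouse sensory neurons, Mrgprd, Mrgpra3, Mrgprx1, P2rx3, Lpar3, Acpp, Ctxn3 and Tmem45b. They were chosen by symbol, as known markers of this neuron class, and all 8 were found among the 55536 gene identifiers of the deposited count tables. The list was selected with earlier results of these libraries known, among them a nociceptor excess in the tagged central axons. The p-values given for these genes therefore describe the libraries and give no independent support to that pattern.

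Non-peptidergic nociceptors are small sensory neurons with unmyelinated axons that end mainly in the epidermis and, centrally, in lamina II of the dorsal horn. They carry Mas-related G protein-coupled receptors, which answer to itch-inducing or painful compounds, and the ion channel P2RX3, which opens when ATP is released from damaged cells. Many also carry prostatic acid phosphatase, the product of Acpp, an ectoenzyme that turns AMP into adenosine. Of the receptors, MRGPRD is activated by beta-alanine and marks the largest non-peptidergic population, whereas MRGPRA3 (a chloroquine receptor) and MRGPRX1 (a receptor for a proenkephalin fragment) mark a smaller group of itch neurons. LPAR3 is a receptor for lysophosphatidic acid, a lipid that has been linked to itch and neuropathic pain. CTXN3 is a small membrane protein of the cortexin family, and TMEM45B is a membrane protein used as a marker of these neurons.

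The libraries came from translating ribosome affinity purification (TRAP), in which ribosomes with a GFP-tagged protein L10a are pulled down and their RNA is sequenced. The tagged groups were Nav1.8-Cre;L10a-eGFP-fl/fl mice, so the tag depended on a Cre driven from Nav1.8, the sodium channel gene Scn10a, and marked Nav1.8-lineage neurons of every class. The control groups were L10a-eGFP-fl/fl mice without Cre, so every group carried the floxed L10a-eGFP allele. These spellings are those of the genotype labels, and the sample titles write eGP. Batch 1 held central axons (lumbar dorsal root with spinal cord) and somas (lumbar dorsal root ganglia, DRG), with 4 Cre and 4 control libraries each. Batch 2 held peripheral axons (sciatic nerve), with 4 Cre and 3 control libraries, and further somas, with 4 and 4. Age and treatment are not given in the sources used here. The labels call the libraries biological replicates but do not say whether each came from its own mouse or from pooled mice, so p-values measure the spread between these libraries. Of the batch 1 soma controls, 2 bear an identical column name and are called controls a and b.

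Total counts ran from 3.60 to 19.6 M (M, mega) per library, and 3 counts, taken as the floor of detection, were worth 0.153 to 0.833 CPM (the count scaled to a library total of 1 M). Markers of the dissected tissues were present. In the central axon Cre libraries the summed level of 6 astrocyte markers was 278 to 1262 CPM and that of 8 spinal cord neuron markers 293 to 568 CPM. Summed over 10 Schwann cell and satellite glia markers, the peripheral axon Cre libraries held 11114 to 28330 CPM and the batch 2 Cre somas 839 to 1038 CPM. The oligodendrocyte gene Mog was at 0 in all 7 peripheral axon libraries. Scn10a, the Cre driver gene, read 421, 105, 123 and 45.1 CPM in central axon Cre replicates 1 to 4, against 2.10, 0, 0 and 29.9 CPM in their controls. Its level in Cre-negative somas was 33.4 to 625 CPM, so Cre-negative DRG libraries also held nociceptor RNA. Rpl10a, the gene of the tagged protein, averaged 49.9 ± 12.3 CPM in the tagged and 58.1 ± 36.9 CPM in the untagged central axons (SD, n = 4 each). Control 3 of the batch 1 somas stood apart, with a TMM scaling factor of 0.0547 where the other 7 soma libraries of that batch had 1.30 to 1.78.

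Mrgprd, Mrgpra3 and Mrgprx1 belong to the Mrgpr family, whose members resemble each other enough to bear on how reads are assigned. Mrgpra3 and Mrgprx1 lie near each other on chromosome 7 (GRCm38, minus strand, 47588950 to 47601372 and 48020971 to 48027597), and Mrgprd lies elsewhere on it (plus strand, 145314835 to 145324086). The coding sequence of Mrgpra3 (990 bases) shared 84.58% of aligned bases with Mrgpra9 and 82.78% with Mrgpra4, with an identical run of 76 bases in Mrgpra4. Mrgprx1 was closest to Mrgprb4 (63.27%), and Mrgprd to Mrgpre (55.68%). The stretch around the 76-base run is shown because reads from it fit more than 1 gene. Capitals mark bases equal to those of Mrgpra3 in the alignment, each stretch lies within a single coding exon, and the sequences are those of GRCm38 with GENCODE M21 gene models, 5′ to 3′ on the gene's strand.
Mrgpra3, chr7:47589871-47589976, minus strand, coding bases 201 to 306: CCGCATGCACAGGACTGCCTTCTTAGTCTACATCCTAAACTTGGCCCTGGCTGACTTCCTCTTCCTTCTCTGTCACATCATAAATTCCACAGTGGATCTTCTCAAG
Mrgpra4, chr7:47981603-47981708, minus strand, coding bases 144 to 249: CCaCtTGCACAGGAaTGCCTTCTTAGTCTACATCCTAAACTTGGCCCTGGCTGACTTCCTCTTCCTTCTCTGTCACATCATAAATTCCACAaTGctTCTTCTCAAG
Mrgprx1, chr7:48021729-48021839, minus strand, coding bases 159 to 269: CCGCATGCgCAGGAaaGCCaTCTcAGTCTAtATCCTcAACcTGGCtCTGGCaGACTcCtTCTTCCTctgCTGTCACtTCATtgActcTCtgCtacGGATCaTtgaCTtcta
Mrgprd, chr7:145321552-145321669, plus strand, coding bases 159 to 276: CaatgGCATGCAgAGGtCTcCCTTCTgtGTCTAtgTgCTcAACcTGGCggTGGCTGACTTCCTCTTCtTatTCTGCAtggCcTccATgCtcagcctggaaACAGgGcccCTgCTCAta

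Over the stretch, 100 of 106 bases of Mrgpra4 equalled Mrgpra3, against 77 of 111 in Mrgprx1 and 74 of 118 in Mrgprd. Cut into overlapping words of 50 bases, the exons of Mrgpra3 shared 7.14% of their words with other genes and those of Mrgprx1 5.84%, mostly with Gm18348. Mrgprd, P2rx3, Lpar3 and Ctxn3 shared none, Acpp 0.887% and Tmem45b 1.805%. How the authors' counting treated reads that fit several genes is not given in the sources used here, so the values of Mrgpra3 and Mrgprx1 are uncertain to that extent. Mrgpra4 itself had at most 70 counts in any of the 31 libraries. The exons of P2rx3 (2:84998583-85037462) and Tmem45b (9:31426196-31464462) also overlapped a gene on the opposite strand over 1.83% and 2.18% of their length, Ssrp1 and 4930434F21Rik. The other genes, Lpar3 (3:146220963-146286186), Acpp (9:104288251-104337748) and Ctxn3 (18:57468516-57478133), overlapped no other exon.

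Among the 3 Mas-related receptors of the list, Mrgprd had the highest mean CPM per kb of exon in tagged somas and was found in every tagged library. Its gap to Mrgpra3 was smaller than the larger of their SDs. The means were 45.1 ± 9.33 and 30.3 ± 23.3 CPM per kb in batch 1 and 36.4 ± 9.21 and 28.8 ± 7.57 in batch 2 (SD, n = 4 each). The CPM of Mrgprd was 116, 183, 129 and 139 in batch 1 Cre somas 1 to 4 and 114, 124, 75.2 and 144 in batch 2 Cre somas 5 to 8. Central axon Cre libraries read 98.3, 25.7, 55.0 and 10.4 CPM, and their controls 1.21, 0, 0 and 0 CPM. In peripheral axon Cre libraries it read 5.35, 91.4, 23.9 and 36.4 CPM, and in their controls 40.3, 7.09 and 0 CPM. All central axon Cre values therefore lay above all values of their controls and below all values of the batch 1 Cre somas, whereas the peripheral axon groups overlapped both ways. Mrgpra3 read 21.1, 78.8, 11.2 and 45.9 CPM in batch 1 Cre somas and 12.5, 15.7, 5.97 and 7.75 CPM in central axon Cre libraries. It had 0 counts in all 4 central axon controls and in peripheral axon Cre replicate 1, where the floor was 0.730 CPM, whereas the other 3 peripheral axon Cre libraries held 16.5, 54.7 and 14.9 CPM. Batch 2 Cre somas held 39.3, 24.0, 38.3 and 47.7 CPM of Mrgpra3, within the range of those peripheral axon libraries. Mrgprx1 read 17.5, 16.0, 7.77 and 13.4 CPM in batch 1 Cre somas, 14.4, 4.48, 3.62 and 3.83 CPM in central axon Cre libraries, and 0, 0, 0 and 2.87 CPM in the central axon controls. It was at 25.4, 18.7, 24.0 and 43.8 CPM in batch 2 Cre somas and 3.89, 19.6, 23.7 and 14.2 CPM in peripheral axon Cre libraries, 2 groups that overlapped.

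P2rx3 and Acpp act on the same signal, extracellular ATP and its breakdown products. P2rx3 read 49.7, 48.2, 5.87 and 33.7 CPM in batch 1 Cre somas and 54.2, 23.0, 19.4 and 14.9 CPM in central axon Cre libraries, so these groups overlapped. Its central axon controls held 3.56, 0, 0 and 22.7 CPM, the last of these, 222 counts, within the Cre range, which made P2rx3 the exception among the 8 genes there. Peripheral axon Cre libraries held 5.35, 15.8, 8.54 and 12.1 CPM of P2rx3, all below the batch 2 Cre somas at 51.9, 32.8, 45.6 and 71.6 CPM. Acpp read 88.5, 155, 127 and 193 CPM in batch 1 Cre somas and 126, 31.5, 36.6 and 25.5 CPM in central axon Cre libraries, where replicate 1 alone reached the soma range. Among the central axon controls a single count of Acpp was found, 0.0808 CPM in replicate 1, and 0 in the others. In batch 2, Acpp read 125, 96.6, 93.1 and 115 CPM in Cre somas and 1.46, 74.4, 78.3 and 36.6 CPM in peripheral axon Cre libraries, with no overlap.

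Lpar3 was the lowest of the 8 genes per kilobase of exon in each of the 4 Cre groups. Its CPM was 8.91, 16.9, 1.64 and 46.2 in batch 1 Cre somas, 8.30, 2.33, 4.16 and 4.21 in central axon Cre libraries and 0 in all 4 central axon controls. Batch 2 Cre somas (8.99, 8.48, 6.26 and 9.96 CPM) were closer together than peripheral axon Cre libraries (0, 2.26, 10.2 and 6.76 CPM), and the highest level of all, 75.0 CPM, was in a Cre-negative soma, control 7 of batch 2. Ctxn3 had the smallest SD relative to its mean in the tagged axons of both kinds. It read 50.8, 33.8, 42.3 and 31.2 CPM in central axon Cre libraries and 23.6, 27.1, 27.6 and 23.1 CPM in peripheral axon Cre libraries. The corresponding somas were all higher, at 87.7, 138, 80.7 and 80.7 CPM in batch 1 and 51.8, 59.6, 86.4 and 68.1 CPM in batch 2. Of Ctxn3 the central axon controls held 2 counts in replicate 1, or 0.162 CPM, and 0 in the other 3. Tmem45b read 109, 31.03, 25.6 and 37.2 CPM in central axon Cre libraries, 0 in all 4 controls, and 72.2, 183, 76.2 and 58.6 CPM in batch 1 Cre somas. In batch 2 it read 23.1, 29.0, 55.4 and 20.6 CPM in peripheral axon Cre libraries and 98.6, 58.6, 96.0 and 130 CPM in Cre somas, again with no overlap.

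**Figure D1:**
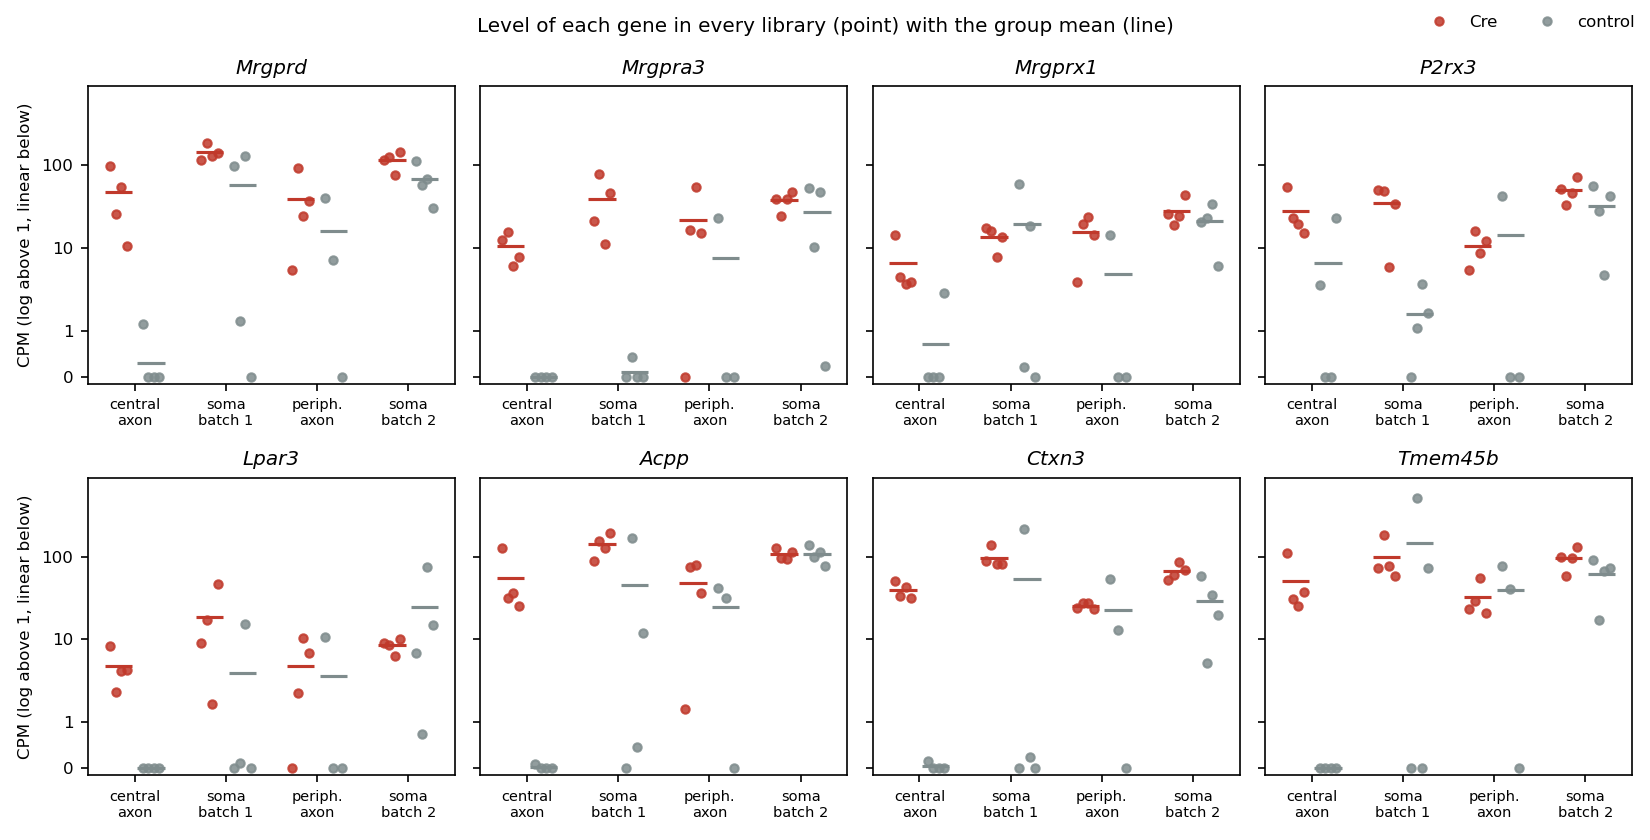
CPM of the 8 non-peptidergic nociceptor genes in every library of the 8 groups, with points for libraries and short lines for group means, on an axis that is logarithmic above 1 CPM and linear below. The central axon controls lie below 3 CPM for every gene except P2rx3, which reached 3.56 and 22.7 CPM, while the Cre-negative somas and peripheral axon controls scatter over much of the Cre range.

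Per kilobase of exon, the order of the genes was similar in the 2 soma groups. In batch 2 Cre somas it ran from Ctxn3 at 41.4 ± 9.25 CPM per kb (SD, n = 4) through Mrgprd at 36.4, Mrgpra3 at 28.8, Mrgprx1 at 23.7, Tmem45b at 20.3, P2rx3 at 18.1 and Acpp at 14.7 ± 2.08 to Lpar3 at 3.42 ± 0.635. In the central axon Cre libraries Ctxn3 also led at 24.6 ± 5.55 CPM per kb (SD, n = 4), followed by Mrgprd at 15.1 ± 12.3, and Lpar3 was again lowest at 1.93 ± 1.02. The peripheral axon Cre libraries had Mrgpra3 first, at 16.6 ± 18 CPM per kb, and Ctxn3 second, at 15.8 ± 1.45, a gap smaller than the spread. Of all neighbours in the order of the 4 Cre groups, only Acpp and Lpar3 in batch 2 somas differed by more than the larger of their SDs.

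The comparison of tagged with untagged libraries asks how much of each RNA comes from tagged ribosomes and how much from unspecific recovery. In central axons, 7 of the 8 genes were higher in every Cre library than in any control, all except P2rx3, beside 6.82% of the 14189 genes tested. All 32 values of the Cre libraries exceeded 3 counts, against 4 of 32 values of the controls. Against the floor of 3 counts per library (a mean of 0.326 CPM over the controls), Mrgpra3 was at least 32.1-fold higher, Lpar3 at least 14.6-fold and Tmem45b at least 156-fold. Acpp was higher by a ratio of 2090 (95% interval 375 to 82600, from 1 control count) and Ctxn3 by 753 (208 to 6210, from 2 control counts), intervals that cover counting error only. Set against 3 counts per library, the floor used for the other 3 genes, the values for Acpp and Ctxn3 were 169 and 121. These bounds rest on library totals alone. Genes with at least 10 counts numbered 15153, 10890, 7251 and 13355 in central axon controls 1 to 4 and 15035 to 15952 in the Cre libraries. The part of this difference in the control values at 0 was not tested. Mrgprd had a log2 fold change of 7.26 (SE 1.91, adjusted p = 0.243), Mrgprx1 of 3.25 (SE 2.07) and P2rx3 of 2.14 (SE 1.803). These 3 values rested on few libraries. Without Cre replicate 1 they were 6.54, 2.42 and 1.52, without control 4 P2rx3 was at 4.61 and the Mrgprx1 controls were all at 0, and without control 1 the Mrgprd controls were all at 0.

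By edgeR's quasi-likelihood test none of the 8 genes passed an adjusted p of 0.05 in central axons (adjusted p from 0.112 to 1.00), and 6 had an unadjusted p under 0.05. The test called 0.0141% of all genes, so hardly any gene passed it. DESeq2 and limma voom each called the same 6, Mrgprd, Mrgpra3, Lpar3, Acpp, Ctxn3 and Tmem45b, beside 1.52% and 0.966% of all genes. The call thus depended on the tool. The median log2 fold change of the 8 genes was 9.06 as fitted and 5.96 with 5 of them set at their bound, beside 0.11 over all genes. Without control 3 the edgeR test called 1 of the 8, Acpp, beside 0.0327% of all genes. Astrocyte markers summed to 1226 to 2128 CPM and Schwann cell and satellite glia markers to 3511 to 30335 CPM in these controls, above or overlapping the Cre libraries (278 to 1262 and 2034 to 9065 CPM). The part of this difference in tissue RNA was not tested. In these bulk samples fewer cells of a type and less RNA per cell cannot be told apart.

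In peripheral axons, Cre and control libraries overlapped for all 8 genes. Control 1 had the highest value of the 3 controls for every gene (Mrgprd 40.3, Mrgpra3 22.7, P2rx3 42.5, Tmem45b 77.2 CPM), and control 4 had no count of any. In control 4, 9606 genes had at least 10 counts, against 13787 in control 1 and 13378 in control 2. Control 2 held Acpp at 31.6, Tmem45b at 40.7, Ctxn3 at 12.9 and Mrgprd at 7.09 CPM and none of the other 4 genes. By edgeR's test 0 of the 8 genes were called (adjusted p = 1.00, log2 fold changes from -0.29 to 1.87), none had an unadjusted p under 0.05, and DESeq2 and limma voom called none of them. The share called over the 13970 genes tested was 0%, with 514 at an unadjusted p under 0.05 and 27 called by DESeq2. General sensory neuron markers summed to 673 to 10132 CPM in these controls and to 3025 to 12014 CPM in the Cre libraries. Muscle markers reached 19609 CPM in a control and 2477 CPM in the Cre libraries, and their part was not tested.

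In the batch 1 somas the Cre-negative libraries split in kind. Controls 1 and a held Mrgprd (97.9 and 128 CPM) and Mrgprx1 (59.6 and 18.2 CPM) but little or no Acpp (0 and 0.469 CPM), Ctxn3 (0 and 0.235 CPM) and Tmem45b (0 in both). Controls 3 and b held the reverse, with Acpp at 168 and 12.02 CPM and Tmem45b at 505 and 71.9 CPM, but Mrgprd at 1.29 and 0 CPM and Mrgprx1 at 0.216 and 0 CPM. The 212 CPM of Ctxn3 in control 3 and its 0 in control b broke the pattern. All 32 values of the Cre somas exceeded 3 counts, against 16 of 32 of the control somas. Genes with at least 10 counts numbered 4934 to 7889 in these control libraries and 12502 to 14015 in the Cre somas. The part of this difference in the low control values was not tested. Mrgpra3 and P2rx3 were the 2 genes above every control in every Cre soma, beside 28.0% of all genes tested. P2rx3 read 0, 1.08, 3.64 and 1.63 CPM in controls 1, 3, a and b, and Mrgpra3 reached 0.431 CPM (4 counts) in control 3 and was at 0 in the rest.

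**Figure D2:**
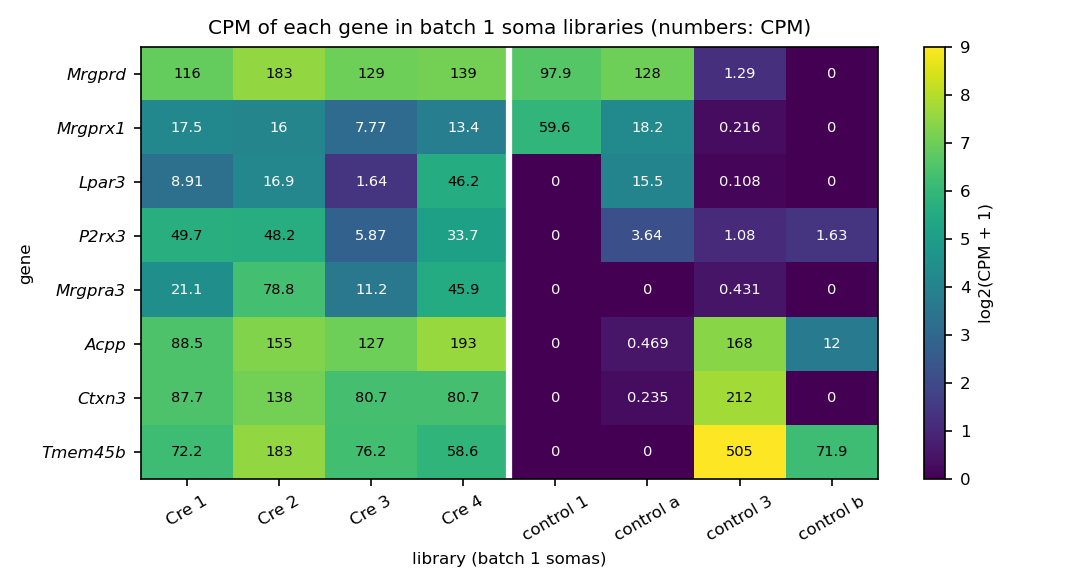
CPM of the 8 genes in each batch 1 soma library, Cre replicates beside the 4 Cre-negative controls, with the color showing log2(CPM + 1) and the number the CPM. Controls 1 and a show Mrgprd and Mrgprx1, controls 3 and b show Acpp and Tmem45b, and each Cre replicate shows all 8 genes.

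By edgeR's test none of the 8 genes was called in batch 1 somas (adjusted p from 0.393 to 0.854), none had an unadjusted p under 0.05 and neither DESeq2 nor limma voom called any, beside 4.42% of 11667 genes. Without control 3, Mrgpra3 and Ctxn3 were called, beside 24.3% of all genes tested in that fit. In batch 2, where Cre-negative somas held these RNAs almost as often as tagged ones (30 of 32 values above 3 counts), Mrgprd was at 112, 57.5, 68.3 and 30.6 CPM in controls 5 to 8 and Ctxn3 at 57.5, 5.18, 34.2 and 19.9 CPM. Both had an unadjusted p under 0.05 (Mrgprd log2 fold change 1.01, SE 0.39, adjusted p = 0.224; Ctxn3 1.46, SE 0.59, adjusted p = 0.247, edgeR). None of the 8 genes passed, DESeq2 and limma voom called none of them, and the share called over 15280 genes was 0%, with 2503 at an unadjusted p under 0.05 and 1160 called by DESeq2. Without control 5, Mrgprd and Ctxn3 were called, beside 11.7% of all genes tested in that fit. Acpp had the same mean unscaled CPM in both genotypes, at 107 ± 15.2 CPM in Cre and 107 ± 26.1 CPM in control somas (SD, n = 4 each). With TMM scaling its log2 fold change was 0.15 to 0.46 in the edgeR fits that each left out a library. Schwann cell and satellite glia markers were at 839 to 1038 CPM in Cre and 1763 to 5157 CPM in control somas of batch 2, and their part was not tested.

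Axons were compared with the Cre somas of their own batch. These fits set whole pull-downs from different tissues side by side and subtract no untagged background, so they do not isolate axonal ribosomes. From here on, fell and rose mean called lower or higher by edgeR's test at an adjusted p under 0.05. In central axons all 8 genes had negative log2 fold changes, and 4 fell, Mrgprd (-1.93, SE 0.56, adjusted p = 0.0365), Mrgpra3 (-2.27, SE 0.56, adjusted p = 0.0191), Acpp (-1.70, SE 0.52, adjusted p = 0.0450) and Ctxn3 (-1.70, SE 0.33, adjusted p = 0.00600), by edgeR's test. The background was 5.11% of 14480 genes called lower. P2rx3 had the value nearest to 0 (-0.65, adjusted p = 0.503), and Mrgprx1 (-1.41), Lpar3 (-2.27, SE 0.80, adjusted p = 0.0761) and Tmem45b (-1.30) did not pass either. Mrgprd and Ctxn3 were below every Cre soma in every central axon Cre library, beside 4.17% of all genes. The median over the 8 genes was -1.70, beside 0.05 over all genes. Ctxn3 was called in 8 of 8 fits that each left out a library, Mrgpra3 in 5, Mrgprd in 2 and Acpp in 1. Without central axon Cre replicate 1, which had the highest value for 7 of the 8 genes, 7 genes were called, beside 9.18% of all genes called lower. Without central axon Cre replicate 2 or Cre soma 1 there were 2 calls (1.42% and 2.66% of all genes), and without central axon Cre replicate 3 or 4 or Cre soma 2 there was 1 (1.49%, 1.60% and 3.08%). A fit that held the control groups too called none.

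In peripheral axons all 8 genes were again negative, and 3 fell, P2rx3 (-2.43, SE 0.42, adjusted p = 0.00150), Ctxn3 (-1.60, SE 0.30, adjusted p = 0.00233) and Tmem45b (-1.74, SE 0.41, adjusted p = 0.00760), by edgeR's test. The background was 12.5% of 15467 genes called lower. Mean CPM in untagged against tagged peripheral axons was 14.2 against 10.5 for P2rx3, 39.3 against 32.0 for Tmem45b and 22.3 against 25.3 for Ctxn3. The part of untagged background in the values of these 3 genes was not tested. Acpp joined these 3 in having no overlap between axon and soma, beside 16.0% of all genes, but did not pass the test (-1.28, adjusted p = 0.203). The receptors Mrgprd (-1.67, adjusted p = 0.0621), Mrgpra3 (-0.90), Mrgprx1 (-1.01) and Lpar3 (-0.94) did not pass. The median over the 8 genes was -1.44, beside -0.03 over all genes. The 3 calls held in 8 of 8 fits that left out a library and were lost in a fit that held the control groups too. Without peripheral axon Cre replicate 1, which had the lowest value for 6 of the 8 genes, 5 genes were called, beside 17.9% of all genes called lower.

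**Figure D3:**
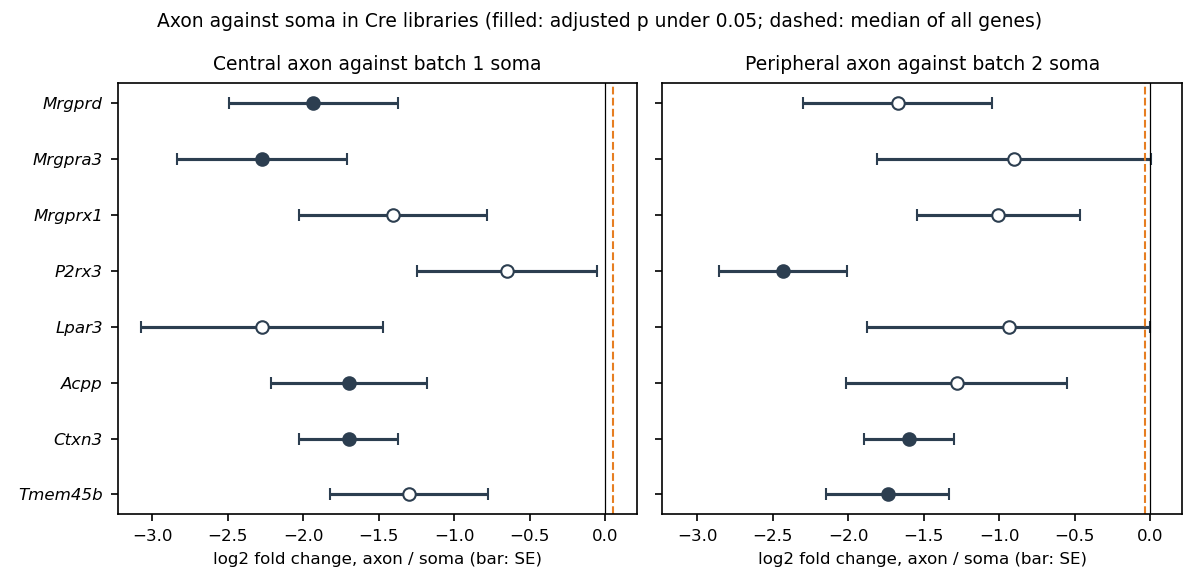
Log2 fold change of each gene between axon and soma Cre libraries (edgeR, bars show SE, filled points have an adjusted p under 0.05, dashed lines mark the median of all genes), central axons with batch 1 somas and peripheral axons with batch 2 somas. All 16 values are negative, and P2rx3 is at -0.65 in central and -2.43 in peripheral axons.

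Markers of many other cell types were higher in axon than in soma libraries, but not of all. In central axons the median log2 fold changes of fibroblast (0.09), microglia and macrophage (0.17) and skeletal muscle markers (0.02) were near that of all genes (0.05). In peripheral axons that of spinal cord neuron markers was -1.60, over 3 genes tested. Astrocyte markers summed to 278 to 1262 CPM in central axon Cre libraries and 1.98 to 24.6 CPM in batch 1 Cre somas, where Gfap was at 0 in 3 of 4, and Schwann cell and satellite glia markers to 2034 to 9065 and 900 to 2774 CPM. Peripheral axon Cre libraries held 3816 to 6686 CPM of fibroblast markers, and batch 2 Cre somas 173 to 364 CPM. The 10 general sensory neuron markers, Scn10a among them, summed to 7134 to 17974 CPM in central axon and 3025 to 12014 CPM in peripheral axon Cre libraries, against 15527 to 25724 and 20734 to 22274 CPM in the somas. The share of the lower CPM of the 8 genes that goes with this was not tested.

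The further genes of this neuron class moved less uniformly. Of 20 tested in central axons against somas, 2 fell by edgeR's test, beside 5.11% of all genes called lower. These were Scn11a, a nociceptor sodium channel (-1.79, SE 0.52, adjusted p = 0.0387), and Runx1, a transcription factor of the non-peptidergic lineage (-1.86, SE 0.47, adjusted p = 0.0215). Sst, the somatostatin gene, went from 0.177 to 154 CPM. Of the 20, 4 had positive log2 fold changes and Sst was the only 1 called higher, beside 8.63% of all genes. The median of the 20 was -0.98. The untagged central axons held 277 ± 49.3 CPM of Sst (SD, n = 4), more than the tagged ones. Spinal cord neurons also express Sst, and their markers summed to 293 to 568 CPM in central axon Cre libraries against 91.7 to 256 CPM in somas, a part that was not tested. In peripheral axons 1 of 19 fell by edgeR's test, Scn11a (-1.40, adjusted p = 0.0478), beside 12.5% of all genes called lower. Among the 5 of 19 with positive log2 fold changes, only Prkcq, a protein kinase C gene, was called higher (2.40, adjusted p = 4.51e-04, edgeR). The share called higher over all genes was 18.7%. Prkcq was at 91.3 CPM in tagged and 168 CPM in untagged peripheral axons. The median over the 19 genes was -0.99. Peptidergic nociceptor genes had medians of -1.35 and -1.74 over 10 genes. In central axons 5 of them fell (Calcb, Tac1, Adcyap1, Trpv1 and Gal), beside 5.11% of all genes called lower. In peripheral axons 4 of the 10 fell, Calca, Calcb and Tac1 among them, beside 12.5% of all genes called lower.

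Genes of ATP and adenosine signalling around P2rx3 and Acpp gave 0 calls among 16 in central axons. In peripheral axons 5 of 17 rose by edgeR's test, beside 18.7% of all genes called higher, the ATP receptors P2rx4 and P2rx7, the UDP-glucose receptor P2ry14, the ectonucleotidase Entpd2 and the nucleoside transporter Slc29a1. The adenosine receptor Adora1 and adenosine kinase Adk fell, 2 of the 17, beside 12.5% of all genes called lower. P2rx7 was at 37.2 ± 13.2 CPM in peripheral axon Cre libraries and 0.362 ± 0.111 CPM in batch 2 Cre somas (SD, n = 4 each), the opposite order to P2rx3. The untagged peripheral axons held 55.8 ± 29.2 CPM of P2rx7 (SD, n = 3), above the mean of the tagged ones. The part of untagged background in the values of all 5 genes that rose was not tested. Of the lysophosphatidic acid genes around Lpar3, 3 of 9 rose in central axons, the receptor Lpar6, the lysophosphatidic acid-producing enzyme Enpp2 (3.41, SE 1.03) and the phosphatase Plpp3 (2.32, SE 0.56), beside 8.63% of all genes called higher, and none fell. The untagged central axons held as much or more of Enpp2 (48.8 CPM against 39.9 CPM in tagged ones) and Plpp3 (155 against 86.8 CPM). Lpar6 went the other way, at 0.182 ± 0.364 CPM in untagged and 7.17 ± 6.46 CPM in tagged central axons (SD, n = 4 each). In peripheral axons 4 of 8 rose, Lpar1 (2.82, SE 0.28), Lpar4 (5.80, SE 0.65), Lpar6 (3.77, SE 0.94) and Plpp3 (4.18, SE 0.41). Their means in untagged peripheral axons were at or above those in tagged ones, at 210 against 206 CPM for Lpar1, 153 against 109.9 for Lpar4, 23.1 against 13.7 for Lpar6 and 344 against 305 for Plpp3. The medians of this list were 2.21 and 2.22, opposite in sign to Lpar3 itself.

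Among signalling partners of the Mas-related receptors, phospholipase Plcb3 fell in both axons (-1.46, SE 0.42 and -1.50, SE 0.38), Trpv1 fell in central axons (-1.39, SE 0.40), the G protein gene Gna11 fell in peripheral axons (-0.78, SE 0.27) and the chloride channel Ano1 rose there (3.96, SE 1.18). Of 12 partner genes, 2 thus fell in each kind of axon, beside 5.11% (central) and 12.5% (peripheral) of all genes called lower. The 1 that rose in peripheral axons stood beside 18.7% called higher. The medians over the 12 genes were 0.16 and -0.76. Of the other Mrgpr genes, 3 were tested in central and 4 in peripheral axons. Mrgpra2b was called lower in peripheral axons (1 of the 4, beside 12.5% of all genes), from 2.51 CPM in Cre somas to 0.149 CPM. It had 0 counts in 3 of 4 peripheral axon Cre libraries, where the floor was 0.520 to 0.732 CPM. The size of the fall therefore cannot be told. Mrgpra1, which shares 83.28% of its coding bases with Mrgpra3, read 40.5 ± 46.1 CPM in central axon Cre libraries, 0 in all 4 of their controls and 91.3 ± 17.5 CPM in batch 1 Cre somas (SD, n = 4 each).

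Central and peripheral axons came from different batches, so they were compared through the somas or the controls of their own batch, and batch and axon type otherwise cannot be told apart. Relative to the somas, P2rx3 had the largest difference, 1.91 higher in central axons on the log2 scale (SE 0.79, unadjusted p = 0.0253, adjusted p = 0.113, edgeR). None of the 8 genes passed, by edgeR, DESeq2 or limma voom, beside 13.1% of all genes, and P2rx3 was the only 1 of the 8 with an unadjusted p under 0.05. Relative to the controls none passed by edgeR (6 at an unadjusted p under 0.05) beside 0.00578% of all genes, limma voom called none, and DESeq2 called 4, Mrgpra3, Acpp, Ctxn3 and Tmem45b, beside 1.63% of all genes. Without peripheral axon control 4, which had no count of any of the 8 genes, edgeR called Ctxn3 and Tmem45b, beside 0.0369% of all genes.

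Summed over the 8 genes, the tagged central axons held 242 ± 156 CPM and the tagged peripheral axons 196 ± 104 CPM (SD, n = 4 each), against 583 ± 175 and 508 ± 89.5 CPM in the Cre somas. Divided by Scn10a in the same library, the sum was 1.13 to 3.00 in central axon, 0.909 to 2.43 in peripheral axon, 1.21 to 1.78 in batch 1 soma and 1.13 to 1.54 in batch 2 soma Cre libraries. The ratio to Scn10a thus overlapped between all 4 Cre groups. In the Cre-negative batch 1 somas it ran from 0.266 to 26.6, the latter in control 3, where Tmem45b alone made up 505 CPM.

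**Figure D4:**
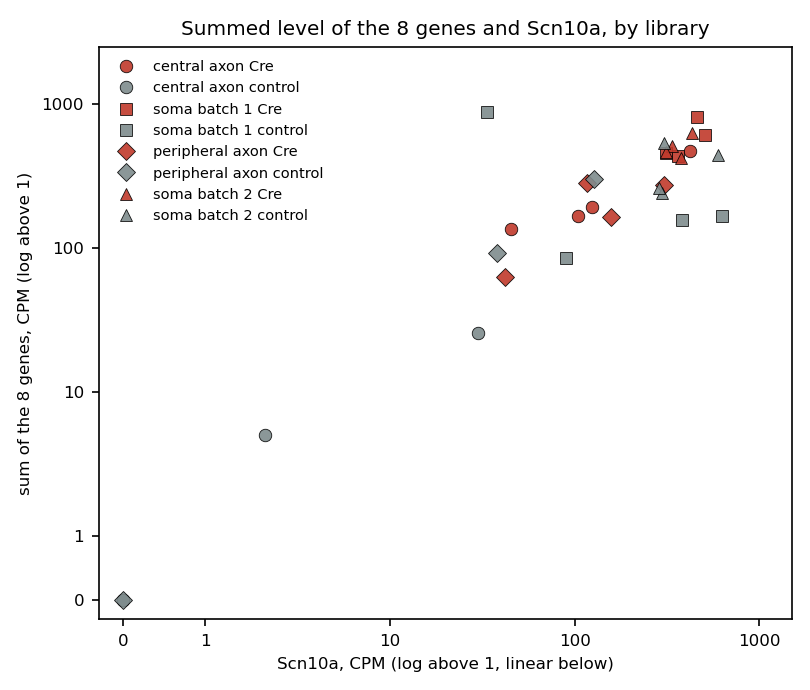
Summed CPM of the 8 genes against the CPM of Scn10a in each of the 31 libraries, by group, on axes that are logarithmic above 1 CPM and linear below. The Cre libraries lie along a band with ratios of 0.909 to 3.00, 3 axon control libraries coincide at 0 on both axes, and soma control 3 of batch 1 lies far above the band.

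As a description over the 31 libraries, which share groups and differ in depth, Pearson's r of log2(CPM + 1) between pairs of the 8 genes ran from 0.342 (Mrgprx1 with Tmem45b) to 0.924 (Acpp with Tmem45b). Acpp, Ctxn3 and Tmem45b followed each other (Acpp with Ctxn3 0.889, Ctxn3 with Tmem45b 0.893), and Mrgprd followed Mrgprx1 (0.881) and Scn10a (0.880). Among the 16517 genes compared, those most like Mrgprd were Rapsn (0.941), Gm13425 (0.914) and Fam89a (0.912), and Rapsn also headed the list for Mrgprx1 (0.857), before Gfra3 (0.852) and Isl1 (0.842). Insm2 was closest to Acpp (0.932) and to Ctxn3 (0.898). Acpp was followed next by Tmem233 (0.912) and Mrgpra1 (0.875), and Ctxn3 by Nqo2 (0.890) and Gm7271 (0.881). Tmem45b was most like Tmem233 (0.891), Antxr2 (0.862) and Nqo2 (0.856). For Mrgpra3 the closest were Prtn3 (0.901), Tstd1 (0.893) and Smr2 (0.890), for P2rx3 Mthfsd (0.887), Kcnk18 (0.868) and A3galt2 (0.865), and for Lpar3 2210408F21Rik (0.83) and Kcnv1 (0.806).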

How the data were processed

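Raw read counts per gene were deposited by the authors as 1 table per batch, 31 libraries in all, per the file headers. Libraries were made with the SMART-Seq v4 kit, per the labels' protocols, from under 1 ng (somas) or under 100 pg (axons) of RNA. STAR 2.7.2b and mm10 are named in the submitters' processing notes. The counting program, its use of strand and its annotation are not given in the sources used here. All 55536 identifiers matched GENCODE M21 (GRCm38), which gave symbols, coordinates, exon lengths and sequences. No column was left out, and both soma control columns of the same name entered the fits by group.

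Each comparison was fitted on its own groups with edgeR 4.0.16 in R 4.3.3 (filterByExpr with a minimum count of 10 and a minimum total of 15, TMM, quasi-likelihood test, Benjamini-Hochberg adjusted p under 0.05 over all genes tested). For differences of differences, both batches entered 1 fit. The SE was obtained by dividing each log2 fold change by the root of its F statistic. CPM is the count divided by the library total. DESeq2 1.42.0, limma 3.58.1 voom, RLE scaling, library size alone, other count filters, all groups in 1 fit, a replicate block and leaving out each library were the alternatives. The edgeR fit was run on simulated counts for central axon Cre against control and for central axons against somas only. The simulated libraries all had the same spread, unlike the real ones, so that run does not bear on the uneven control libraries. Intervals are 95% and, like the floor of 3 counts, cover counting error only, since the libraries carry no molecular identifiers.

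The members and lists were chosen with earlier results of these data known. Named were the 8 members, Scn10a and Rpl10a, called genes of the other lists, and per member the 3 genes with the highest r of log2(CPM + 1) among genes with a mean of at least 1 CPM. Some genes that this rule names are not reported here. The r between libraries was also taken on deviations from their group means. In central axons against somas it was 0.196, -0.00494, 0.0876 and 0.184 for same-numbered libraries 1 to 4. Differently numbered ones ran from -0.240 to 0.184. In the Cre against control comparisons the ranges were -0.118 to 0.209 and -0.234 to 0.233. These r were low and the ranges overlapped, so numbers were not taken as pairs in the main fits.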

Additional observations from a re-analysis of the deposited data

Results flagged for a closer look

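In groups of 4 libraries, 15 of 53 sets of values held a library that stood apart from the other 3 (Dixon's ratio above its 95% critical value). Chance marks about 1 in 20 such sets, and sets with 3 libraries at 0 are marked whenever the fourth is not. In the central axon controls these were Mrgprd (1.21 CPM), Acpp (0.0808 CPM) and Ctxn3 (0.162 CPM) in replicate 1, and Mrgprx1 (2.87 CPM) and P2rx3 (22.7 CPM) in replicate 4. In central axon Cre replicate 1 Mrgprx1 (14.4 CPM), Acpp (126 CPM) and Tmem45b (109 CPM) stood above the other 3 libraries. In batch 1 Cre soma 2 Ctxn3 (138 CPM) and Tmem45b (183 CPM) did so. In the batch 1 soma controls it was replicate 3 for Mrgpra3 (0.431 CPM), Acpp (168 CPM), Ctxn3 (212 CPM) and Tmem45b (505 CPM), and control a for Lpar3 (15.5 CPM). The cause was not tested. By edgeR's test on all libraries, no difference between central and peripheral axons passed for any of the 8 genes.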

How the results depend on the processing

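All 8 log2 fold changes stayed negative in both axon against soma comparisons under every alternative run, and the calls did not. With all groups of the batch in 1 fit, 0 of the 8 genes were called in either comparison (15 and 1404 genes in all, against 1990 and 4818), and with library size alone 2 were called in central axons (2146 genes higher and 293 lower, against 1250 and 740; the median over all genes went from 0.05 to 0.50). Leaving out 1 library gave 1 to 7 calls in central and 3 to 5 in peripheral axons. For central axon Cre against control, DESeq2 and limma voom called 6 and a fit with no low-count filter 3 (216, 137 and 34 genes in all, against 2), and leaving out 1 library gave 0 to 1. In batch 1 somas library size alone and all groups in 1 fit called 1, and leaving out 1 library gave 0 to 2 in both soma batches. For central against peripheral axons relative to control, DESeq2 called 4 (282 genes in all), no filter 2 (26 genes) and leaving out 1 library 0 to 2. Over all genes, batch 1 somas gave 1902 calls by DESeq2, 0 by voom, 2244 by library size alone, 1700 with no filter and 2114 with all groups, against 516. Batch 2 somas gave 1160, 0, 257, 162 and 175, and 21 with RLE scaling or with a minimum of 10 counts throughout a group, against 0. Peripheral axon Cre against control gave 27 by DESeq2 and 1 with all groups, against 0. The difference relative to soma gave 3290 by DESeq2 and 1 with all groups, against 2187, and that relative to control 4 by voom, against 1. Leaving out 1 library moved the calls over all genes to 0 to 3094 in batch 1 somas, 0 to 1826 in batch 2 somas, 822 to 2717 in central axons against somas and 3220 to 6055 in peripheral axons against somas.

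With the replicate block, 4 of the 8 genes were called in central axons against somas (2226 genes in all). In the 4 Cre against control comparisons 0 were called with the block (1 gene in all in central axons, 0 in batch 1 somas). Whether the numbers pair the libraries was not settled. Signs turned among genes that passed no test. In peripheral axon Cre against control, P2rx3 turned to 4.29 by voom and 6.13 with the block, and Tmem45b to 2.23 and 0.45. In batch 1 somas, voom gave Mrgprx1 1.09, Acpp 0.61 and Ctxn3 2.47, library size alone Acpp 1.64 and Ctxn3 0.87, all groups in 1 fit Acpp 0.62, and the block Acpp 2.27, Ctxn3 1.55 and Tmem45b 0.40. In batch 2 somas Lpar3 was 0.26 by voom and 0.063 with the block, and Acpp -0.0027 with library size alone. Relative to soma, voom gave Mrgpra3 0.53, Lpar3 0.75 and Ctxn3 -0.0253, and Ctxn3 was -0.0665 by DESeq2, -0.0667 by RLE and -0.10 under the minimum of 10 counts. Leaving out 1 library, peripheral axon Cre against control ranged from -0.88 to 9.17 for P2rx3, -0.18 to 8.10 for Lpar3, -0.31 to 1.88 for Ctxn3 and -0.79 to 0.61 for Tmem45b. Batch 1 somas ranged from -1.17 to 0.50 for Mrgprx1, -3.49 to 4.81 for Acpp, -4.35 to 9.85 for Ctxn3 and -5.70 to 1.77 for Tmem45b, the upper ends of the last 3 without control 3. Lpar3 ranged from -1.61 to 0.40 in batch 2 somas. Relative to soma the ranges were -0.84 to 0.79 for Mrgprd, -1.08 to 0.0061 for Mrgprx1, -1.18 to 0.053 for Acpp, -0.25 to 0.19 for Ctxn3 and -0.22 to 1.00 for Tmem45b. Relative to control, they were -1.21 to 8.85 for Mrgpra3, -6.90 to 6.95 for Mrgprx1, -7.44 to 4.78 for P2rx3 and -0.12 to 8.55 for Lpar3, each lowest without peripheral axon control 1. Where no value is given beside a turn or a lost call, the cause was not tested. Control values of 0 to 3 counts are at or under the floor, where a level cannot be told from 0.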
